A study of Homo sapiens with 10 samples.

Results

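BCL-2 family genes were followed in RPTEC/TERT1 cells, a human renal proximal tubular epithelial line immortalised with telomerase, 7 days after a single dose of 10 Gy of ionising radiation. The 10 members were taken by gene symbol from a count table of 61587 gene identifiers, and comprised 4 anti-apoptotic genes (BCL2, BCL2L1, BCL2L2 and MCL1), 2 effectors (BAX and BAK1) and 4 BH3-only genes (BBC3, PMAIP1, BCL2L11 and BID). All 10 were among the 19006 genes that passed the filter on low counts. The study compared 5 irradiated samples with 5 non-irradiated controls (0 Gy), all of the same line and all collected on day 7, by bulk RNA-seq of polyadenylated RNA. By the study's methods the controls were mock irradiated, being brought to the irradiator without exposure. The labels name no other allele or agent in either group, and as a single immortalised line in culture it lacks the neighbouring cells of a tubule. Irradiation was used in the study to induce senescence, so the comparison asks how messages for survival and death proteins stand in cells that persist after damage.

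The BCL-2 family controls the permeability of the outer mitochondrial membrane. BAX and BAK1 encode the effectors that open pores through which cytochrome c leaves the mitochondrion, the anti-apoptotic proteins hold these effectors and the BH3-only proteins in check, and the BH3-only proteins are the damage sensors that release the brake or engage the effectors directly. BAX, BBC3 (PUMA) and PMAIP1 (NOXA) are known transcriptional targets of p53, and senolytic compounds such as navitoclax block BCL-2, BCL-xL and BCL-w but not MCL-1. Messages were measured here, not proteins, and much of the control of this family acts on protein stability and binding.

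Because 3 members are textbook p53 targets, the region around the start site of each member was searched for the p53 response element consensus, a pair of adjoining 10-base half-sites. Up to 3 mismatches were allowed outside the fixed C and G of each half-site, from 1000 bases before to 500 bases after the start, with the consensus being its own reverse complement so that a scan of one strand covers both. Elements were found at BAX, BBC3 and PMAIP1, and at none of the other 7 members, and the search covered 20033 protein-coding genes of which 1084 (5.41%) held at least 1. They are printed to show what the letters at these promoters look like, on the strand of the gene in GRCh38, with the 20-base element in capitals and 20 bases on each side in lower case. The order is the upstream and downstream BAX element, the BBC3 element, and the farther and nearer PMAIP1 element.
BAX chr19:48954435-48954494: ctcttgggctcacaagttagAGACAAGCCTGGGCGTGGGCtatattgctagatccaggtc
BAX chr19:48955193-48955252: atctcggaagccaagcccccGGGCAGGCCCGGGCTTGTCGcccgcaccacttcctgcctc
BBC3 chr19:47231300-47231359: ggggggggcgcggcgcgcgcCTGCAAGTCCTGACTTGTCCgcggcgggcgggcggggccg
PMAIP1 chr18:59899529-59899588: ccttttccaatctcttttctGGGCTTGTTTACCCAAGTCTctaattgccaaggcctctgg
PMAIP1 chr18:59899791-59899850: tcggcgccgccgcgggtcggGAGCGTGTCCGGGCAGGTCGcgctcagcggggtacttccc
BAX and PMAIP1 lie on the plus strand and BBC3 on the minus strand. The BAX elements begin at positions -420 and 338, counted from the start site at 0, and have 3 and 2 mismatches. The first lies outside the gene, and the second falls in the first intron of the coding transcripts, inside an exon of a retained-intron transcript. The BBC3 element begins at position -140, with 3 mismatches, and falls in an intron of a longer BBC3 transcript. Those of PMAIP1 begin at positions -447 and -185, both outside the gene, with 2 and 3 mismatches. The window and the tolerance were chosen after the values and matches had been seen, and a match describes the sequence only, without showing that p53 binds there.

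Depth on genes ran from 66269311 to 131555873 counts per sample, and each member had between 831 and 54938 counts in every sample. Levels are given as CPM, counts scaled to a common library size after TMM normalisation, and each change is the log2 fold change of irradiated over control samples from edgeR's quasi-likelihood test with replicate number as a block, with Benjamini-Hochberg adjustment over the 19006 genes and an adjusted p under 0.05 as the threshold for a call. CDKN1A, the p53-induced cell cycle inhibitor, read 66.7 to 208 CPM in controls and 584 to 768 CPM in irradiated samples, and the proliferation gene MKI67 fell from 162 ± 85.4 to 24.0 ± 5.32 CPM (SD, n = 5 each), so both followed the labels. Of 10 renal epithelial markers 9 exceeded 1 CPM, with LRP2 near 0, whereas none of 4 markers of the differentiated proximal tubule did, and leukocyte markers (0 of 3 over 1 CPM) were near 0 in both groups. Those 9 ranged from AQP1 (means 1.82 CPM in controls and 1.19 CPM after irradiation) to KRT8 (1010 and 1090 CPM). CUBN was also low, at 4.37 and 4.76 CPM. Summed fibroblast markers were 15.8 to 23.4 CPM in controls and 28.4 to 39.9 CPM after irradiation (2 of 4 over 1 CPM), mostly COL1A1 (means 18.8 and 32.2 CPM). Summed endothelial markers were 1.28 to 2.40 and 4.15 to 6.07 CPM (2 of 3). Summed distal nephron markers were 101 to 401 and 18.4 to 172 CPM (2 of 4, UMOD at 0), nearly all SLC12A1 (means 178 and 60.9 CPM). The part of these markers in the results below was not tested. In bulk samples, fewer cells making a message and less of it per cell cannot be told apart.

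Irradiated cells had more BAX and BBC3, more BCL2L1, and less BCL2 and MCL1. Of the 10 members 8 changed, 6 higher and 2 lower, where 46.6% of all genes tested were called, 23.9% higher and 22.7% lower. The samples of the groups did not overlap for 5 members (BCL2, BCL2L1, MCL1, BAX and BBC3), against 26.7% of all genes tested. The median log2 fold change of the members was 0.23, beside -0.0098 over all genes. By class, 1 of 4 anti-apoptotic genes was called higher and 2 lower (median -0.11). Both effectors were called higher (median 0.54), with the BAK1 call lost in 10 of 12 alternatives. Of 4 BH3-only genes 3 were called higher and none lower (median 0.46). The classes were not tested against each other.

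**Figure D1:**
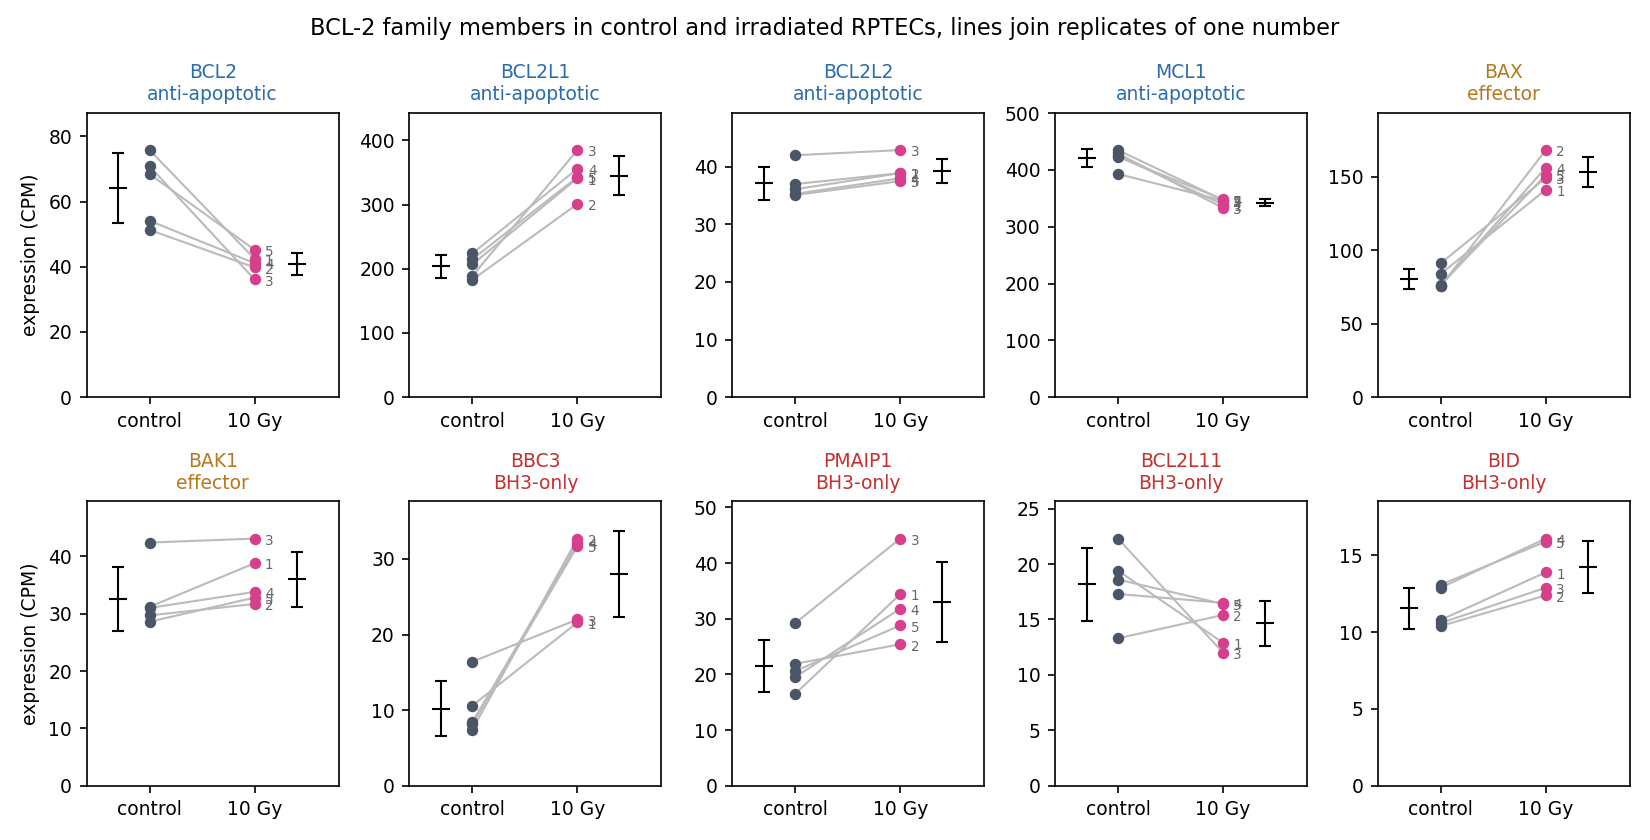
Expression in CPM (vertical axis, from 0) of each member in the 5 control and 5 irradiated samples, with a line joining the samples of one replicate number (printed beside the irradiated point) and the mean ± SD at the side. BCL2 and MCL1 fell, BCL2L1, BAX and BBC3 rose, with no overlap between groups for these 5 genes, and BBC3 of pairs 1 and 3 rose least.

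Among the anti-apoptotic genes, BCL2L1 (chr20:31664452-31723989), which encodes BCL-xL, was the only one that rose. It read 207, 183, 189, 224 and 215 CPM in control replicates 1 to 5 and 341, 301, 385, 356 and 343 CPM in irradiated replicates 1 to 5. Every irradiated sample lay above every control. Control samples averaged 203 ± 17.2 CPM and irradiated samples 345 ± 30.5 CPM (SD, n = 5 each), for a log2 fold change of 0.76 (SE 0.062, edgeR adjusted p = 8.31e-05), or 1.70-fold. All 5 pairs rose, by 0.67 to 1.03 on the log2 scale, with the largest rise in pair 3. The gene also makes the pro-apoptotic splice form BCL-xS, which counts per gene do not separate.

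BCL2 (chr18:63123346-63320128), the founding survival gene of the family, moved the other way. It read 75.8, 51.3, 70.8, 54.1 and 68.4 CPM in controls and 42.4, 39.8, 36.1, 41.1 and 45.2 CPM after irradiation. The controls spread over a wider range than the irradiated samples, and the lowest control was still above the highest irradiated sample. Its mean fell from 64.1 ± 10.8 to 40.9 ± 3.35 CPM (SD, n = 5 each), with a log2 fold change of -0.64 (SE 0.094, edgeR adjusted p = 0.00124), and each pair fell, by 0.37 to 0.97.

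MCL1 (chr1:150560895-150579738) encodes a short-lived survival protein whose message and protein turn over fast. Its 5 controls read 425, 393, 429, 423 and 435 CPM and its irradiated samples 339, 346, 333, 348 and 347 CPM. The irradiated samples lay close to each other and all below the lowest control, replicate 2. The change was small: the means were 421 ± 16.2 and 343 ± 6.40 CPM (SD, n = 5 each) and the log2 fold change was -0.30 (SE 0.046, edgeR adjusted p = 0.00154).

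BCL2L2 (chr14:23298790-23311751), the gene of BCL-w, did not pass the threshold. It read 36.1, 37.0, 42.0, 35.3 and 35.1 CPM in controls and 38.9, 38.9, 42.9, 38.0 and 37.5 CPM after irradiation. The groups overlapped because control replicate 3 was higher than 4 of the irradiated samples, although within each of the 5 pairs the irradiated sample was the higher. The log2 fold change was 0.08 with a 95% interval of -0.01 to 0.17 (edgeR adjusted p = 0.117).

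Per kilobase of exon, BCL2L1 and MCL1 together supplied most of the anti-apoptotic messages. Dividing by all exon bases of a gene, BCL2L1 went from 48.5 ± 4.10 to 82.2 ± 7.27 and MCL1 from 67.7 ± 2.61 to 55.1 ± 1.03 CPM per kilobase (SD, n = 5 each), while BCL2 stood at 5.08 ± 0.854 and 3.24 ± 0.265 and BCL2L2 at 7.66 ± 0.584 and 8.11 ± 0.446. The share of BCL2L1 in the summed level of the 4 genes was 37.6% ± 1.85 (range 35.1 to 40.1) in controls and 55.2% ± 2.36 (51.8 to 58.4) after irradiation. The share of MCL1 went from 52.5% ± 1.0 to 37.1% ± 2.17 and that of BCL2 from 3.94% ± 0.586 to 2.19% ± 0.226. None of these 3 shares overlapped between the groups, and the summed level rose from 129 ± 6.46 to 149 ± 6.65 CPM per kilobase, also without overlap. These shares are a description, with no test. The lengths merge the exons of every annotated transcript, and which transcripts the cells made was not examined, so levels compared between genes are approximate.

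The order of MCL1 and BCL2L1 in controls depended on how length was counted. Of the BCL2L1 exon bases 41.3% lie under ABALON on the opposite strand, a gene with 5 to 22 counts per sample. Whether counting used the strand of the reads was not established here. Unstranded counting leaves out reads that fall on such an overlap, whereas stranded counting would cost BCL2L1 none of them. Dividing the same counts by exon bases shared with no other gene gave BCL2L1 48.7% ± 1.98 of the summed level in controls and MCL1 42.2% ± 1.12. That order is the reverse of the one above. After irradiation the shares were 65.9% ± 2.15 and 27.5% ± 1.89. BCL2L1 exceeded MCL1 in all 5 irradiated samples by either length, and the log2 ratio of BCL2L1 to MCL1 went from -0.48 ± 0.098 to 0.57 ± 0.15 over all exon bases. The other large overlap was at BCL2L2, with 24.8% of its exon bases under other genes, 16.8% on the same strand from the read-through gene BCL2L2-PABPN1. The level of BCL2L2 over all exon bases may therefore be too low, and that of BCL2L1 too if counting was unstranded. If counting was stranded, the level and share of BCL2L1 over the shorter length are too high.

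**Figure D2:**
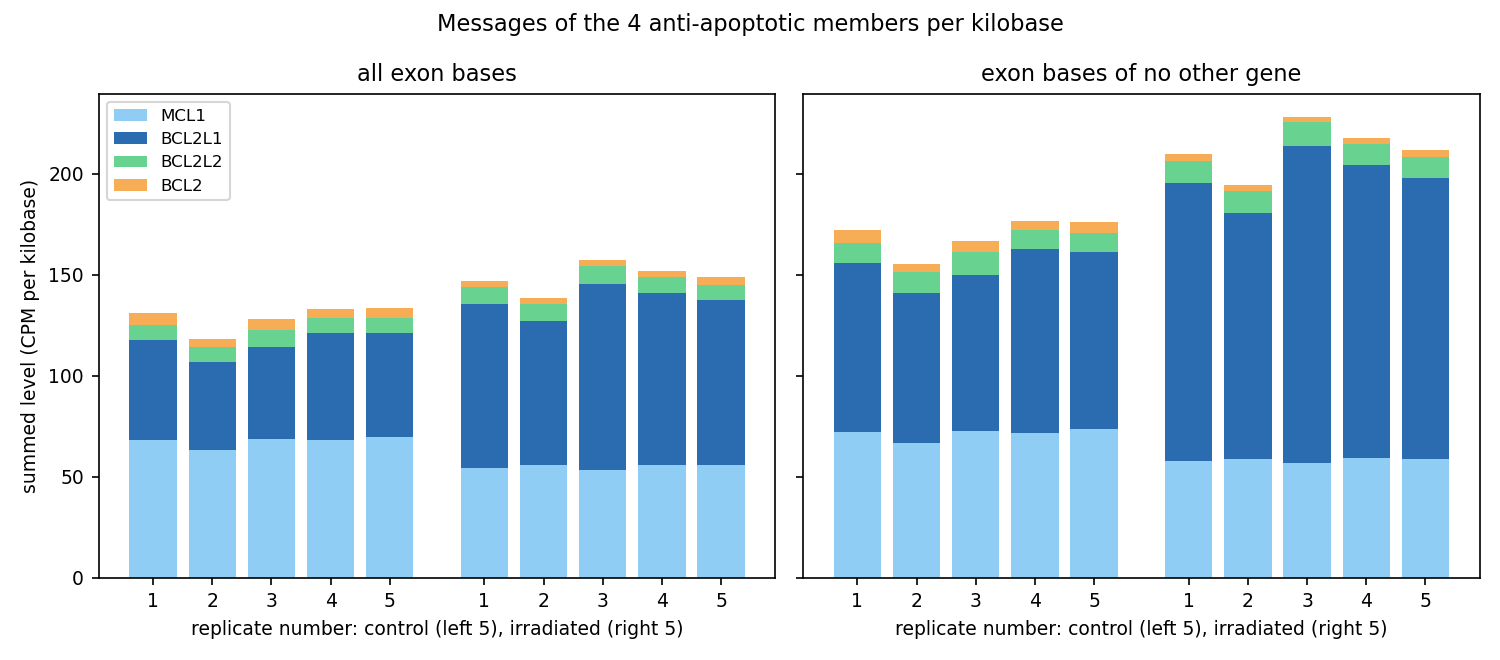
Summed level of the 4 anti-apoptotic genes in CPM per kilobase (vertical axis, from 0) in each control and irradiated sample, stacked by gene, over all exon bases (left) and over exon bases shared with no other gene (right). The BCL2L1 segment grew and the MCL1 segment shrank in irradiated samples by both lengths, and BCL2 and BCL2L2 were thin segments throughout.

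The effector BAX (chr19:48954815-48961798), which forms pores after moving from the cytosol to mitochondria, had the smallest p of the members. It read 83.9, 75.5, 91.1, 75.9 and 76.4 CPM in controls and 141, 168, 149, 156 and 151 CPM after irradiation. The groups lay far apart, with 91.1 CPM as the highest control and 141 CPM as the lowest irradiated sample. The averages of 80.6 ± 6.84 and 153 ± 9.99 CPM (SD, n = 5 each) gave a log2 fold change of 0.92 (SE 0.072, edgeR adjusted p = 6.96e-05), or 1.90-fold.

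BAK1 (chr6:33572547-33580293), the effector that resides in the mitochondrial membrane, differed far less. Controls read 31.2, 29.7, 42.4, 31.0 and 28.6 CPM and irradiated samples 38.8, 31.7, 43.1, 33.8 and 32.8 CPM. The groups overlapped, with control replicate 3 above 4 of the irradiated samples, but the irradiated sample of every pair was the higher one. The log2 fold change of 0.15 (SE 0.052, edgeR adjusted p = 0.0449) was just past the threshold. This call was lost in 10 of 12 alternatives, with adjusted p of 0.0194 to 0.361 over all 12. Per kilobase BAX exceeded BAK1 by 2.14 ± 0.186 times in controls and 3.69 ± 0.657 times after irradiation, and the ratio of BAX to BCL2 per kilobase was 6.23 ± 0.799 (5.40 to 7.17) and 18.3 ± 2.06 (16.2 to 20.6). Both ratios separated the groups, but their absolute size depends on the exon lengths used (12612 bases for BCL2 and 2587 for BAX).

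BBC3 (chr19:47220822-47232766) encodes PUMA, a BH3-only protein that binds all the main survival proteins, and had the largest fold change of the members. Its controls read 10.6, 7.42, 16.4, 8.42 and 8.12 CPM and its irradiated samples 21.6, 32.7, 22.0, 32.1 and 31.7 CPM. No irradiated sample reached down to the controls, but irradiated replicates 1 and 3 were lower than the other three, and control replicates 1 and 3 were the highest controls. Means of 10.2 ± 3.65 and 28.0 ± 5.68 CPM (SD, n = 5 each) gave a log2 fold change of 1.50 (SE 0.25, edgeR adjusted p = 0.00216), or 2.84-fold. Pairs 1 and 3 rose by 1.04 and 0.43 on the log2 scale, and pairs 2, 4 and 5 by 2.14, 1.93 and 1.96.

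PMAIP1 (chr18:59899996-59904305) encodes NOXA, which binds MCL-1 in preference to BCL-2. It read 16.5, 21.9, 29.2, 19.5 and 20.6 CPM in controls and 34.4, 25.4, 44.4, 31.8 and 28.8 CPM after irradiation. Control replicate 3 overlapped with the irradiated range, and all 5 pairs rose, by 0.21 in pair 2 up to 1.05 in pair 1. The log2 fold change was 0.61 (SE 0.11, edgeR adjusted p = 0.00272).

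BID (chr22:17734138-17774770), which links death receptors to mitochondria once caspase-8 cleaves it, rose by a small and even amount. Its controls read 10.8, 10.4, 10.6, 12.9 and 13.1 CPM and its irradiated samples 13.9, 12.4, 12.9, 16.1 and 15.9 CPM. Replicates 4 and 5 were the highest in both groups, so that the groups overlapped while the pair differences stayed between 0.25 and 0.36. The log2 fold change was 0.30 (SE 0.054, edgeR adjusted p = 0.00292).

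BCL2L11 (chr2:111119378-111168444), the gene of BIM, was the one BH3-only member with a negative estimate. It read 19.4, 13.3, 22.3, 17.3 and 18.6 CPM in controls and 12.9, 15.4, 12.0, 16.5 and 16.4 CPM after irradiation. The groups overlapped, and pair 2 went up by 0.20 while pairs 1 and 3 went down by 0.59 and 0.90. The log2 fold change of -0.31 had a 95% interval of -0.65 to 0.04 (edgeR adjusted p = 0.13), and it was called lower without replicate 2 (-0.42, adjusted p = 0.0453) and with every gene of at least 1 count in the fit (-0.34, adjusted p = 0.0292). Without replicate 3 the estimate was -0.15 (adjusted p = 0.327) and without replicate 1 it was -0.23 (adjusted p = 0.325). Of its exon bases 10.8% lie under MIR4435-2HG on the opposite strand, a gene with 2315 to 5512 counts per sample. Whether these counts keep the strands apart was not established here.

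Pairs 1 and 3 both lay outside the range of pairs 2, 4 and 5 for 5 of the 10 members, a share near the 39.2% of all genes tested. This grouping of the pairs was chosen after the data had been seen. BCL2 and BCL2L11 fell more in pairs 1 and 3, and BAX and BBC3 rose less. BCL2L1 rose more in pair 3 (1.03), but pair 1 exceeded pair 2 only beyond the second decimal (0.72 in both). MKI67 was 76.7 and 60.4 CPM in controls 1 and 3 and 217 to 234 CPM in controls 2, 4 and 5, and CDKN1A was highest among controls in replicate 3. The part of these differences between controls in the members' changes was not tested, and the calls of the 8 members that changed held without replicate 1 and without replicate 3 except that of BAK1 without replicate 1 (adjusted p = 0.129).

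Beyond the 10 members, 13 further genes of the family were examined, of which 11 passed the filter, 3 rose, 3 fell and 5 were not called, with a median log2 fold change of -0.11. Over all genes tested 23.9% were called higher and 22.7% lower, so these counts were near the background. BIK, a BH3-only gene active at the endoplasmic reticulum, read 1.36, 1.14, 1.54, 1.26 and 1.08 CPM in controls and 2.66, 2.06, 2.02, 2.78 and 2.42 CPM after irradiation, without overlap and at a low level. Its log2 fold change was 0.90 (SE 0.13, edgeR adjusted p = 0.00115). BOK, a BAX-like effector, rose by 0.22 (adjusted p = 0.00547) and BCL2L13, a mitophagy receptor, by 0.15 (adjusted p = 0.0316), the latter lost in 6 of 12 alternatives.

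BMF, a BH3-only gene whose protein is held at the cytoskeleton, showed the largest fall of the family. It read 22.2, 27.5, 20.7, 19.4 and 20.7 CPM in controls and 2.39, 19.9, 2.56, 6.87 and 6.84 CPM after irradiation. Irradiated replicate 2 stood with the controls and the other 4 irradiated samples were well below them. The log2 fold change was -1.92 (SE 0.39, edgeR adjusted p = 0.0055), and lay between -2.29 and -1.61 when each replicate was left out in turn. BCL2L15 fell by 0.75 (adjusted p = 0.000694) without overlap, and BCL2L12 fell by 0.41 (adjusted p = 0.0146), a call lost without replicate 4 (adjusted p = 0.0554) and without replicate 5 (adjusted p = 0.068).

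BAD, HRK, BNIP3, BNIP3L and BCL2L14 were not called, with log2 fold changes of -0.14, -0.07, -0.11, 0.08 and -0.37. BCL2A1, a further survival gene, was under the filter with 73 counts in all, of which 9 fell in controls (8 of them in replicate 2) and 64 in irradiated samples, 4 to 20 each. In the fit of every gene with at least 1 count its log2 fold change was 3.1 (edgeR adjusted p = 0.00085), a size that depends on the prior count because 3 controls were at 0. BCL2L10 had 27 counts in all, too few to compare.

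**Figure D3:**
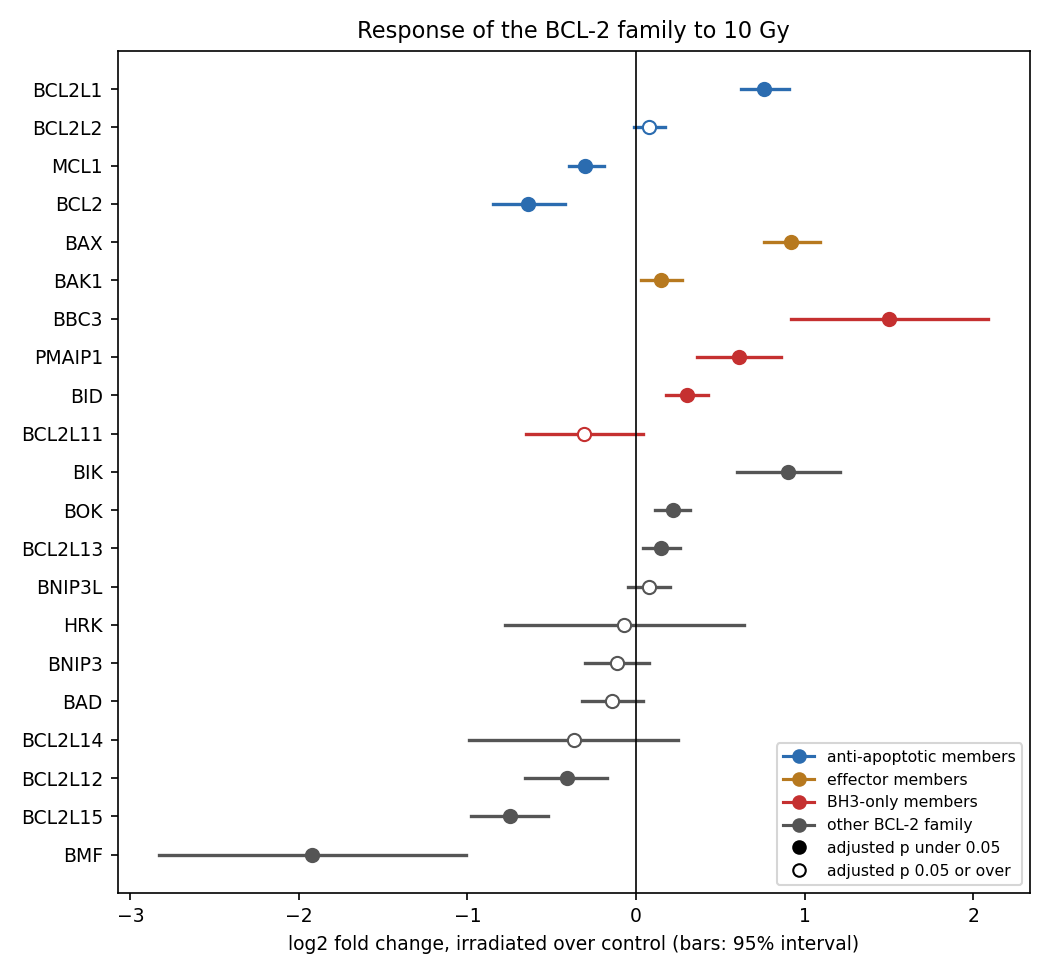
Log2 fold change of irradiated over control samples with its 95% interval (horizontal axis) for the 10 members by class and the 11 other family genes tested, with filled points for an adjusted p under 0.05. BBC3 at 1.50 and BMF at -1.92 marked the ends of the range, and BCL2L1 and BCL2 lay on opposite sides of 0.

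Genes that act before and after the family were described from 4 lists, of 39 genes in all, of which 11 rose, 10 fell and 18 were not called, with a median log2 fold change of -0.03. The background over all genes tested was 46.6% called, 23.9% higher and 22.7% lower, and nothing is read from the counts of single lists. The caspase activation list (12 genes) had 1 higher and 4 lower. CASP9, the initiator caspase of the mitochondrial pathway, rose by 0.40 (edgeR adjusted p = 0.00209), whereas CYCS, which encodes cytochrome c, fell by 0.33 (adjusted p = 0.00974) and the mitochondrial nuclease ENDOG fell by 0.33 (adjusted p = 0.0111). VDAC3, a channel of the outer mitochondrial membrane, fell by 0.18 (adjusted p = 0.0156), a call lost without replicate 4 (adjusted p = 0.0656) and without replicate 5 (adjusted p = 0.0797).

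The inhibitors of apoptosis (6 genes) had 4 higher and 1 lower, and held the largest changes on either side. BIRC3, which encodes the ubiquitin ligase cIAP2 and is a known NF-κB target, read 4.13, 11.5, 9.71, 8.83 and 6.59 CPM in controls and 71.8, 61.2, 75.7, 105 and 96.7 CPM after irradiation. Every irradiated sample was far above the highest control, and the log2 fold change was 3.37 (SE 0.25, edgeR adjusted p = 5.65e-05). BIRC2 rose by 0.49 (adjusted p = 0.00013) and XIAP, the direct caspase inhibitor, by 0.25 (adjusted p = 0.00188). BIRC5, or survivin, which is expressed in dividing cells, fell by 2.40 on the log2 scale (adjusted p = 0.0016) with the smallest falls in pairs 1 and 3, the pairs whose controls were lowest in MKI67.

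Of 12 regulators of BCL-2 family proteins 3 rose and 2 fell. FBXW7, a ubiquitin ligase receptor for MCL-1, rose by 0.46 (edgeR adjusted p = 0.00255), as did the kinases MAPK8 (JNK1) by 0.42 (adjusted p = 0.000362) and GSK3B by 0.39 (adjusted p = 0.000548), both of which phosphorylate family proteins. TRIM17, a ubiquitin ligase for MCL-1 described in neurons, fell by 0.54 (adjusted p = 0.00879) at 2.41 ± 0.446 CPM in controls. Of 9 transcription factors known to drive BH3-only genes 3 rose and 3 fell. FOXO1 rose by 0.63 (adjusted p = 0.000393) and MYC by 0.49 (adjusted p = 0.0253), while the proliferation factor E2F1 fell by 1.25 (adjusted p = 0.0237) and the p53 relative TP73 by 1.32 (adjusted p = 0.0117). In pair 3, however, E2F1 rose by 0.15 and TP73 by 0.24, and in pair 2 MYC fell by 0.03. The groups overlapped for these 3 genes. E2F1 read 7.83 and 5.95 CPM in controls 1 and 3, and 19.6 to 24.4 CPM in controls 2, 4 and 5. TP73 was low, at means of 1.67 CPM in controls and 0.582 CPM after irradiation. The calls for MYC, E2F1 and TP73 were each lost without 1 or more replicates, with MYC at an adjusted p of up to 0.0607, E2F1 up to 0.0929 and TP73 at 0.0571.

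**Figure D4:**
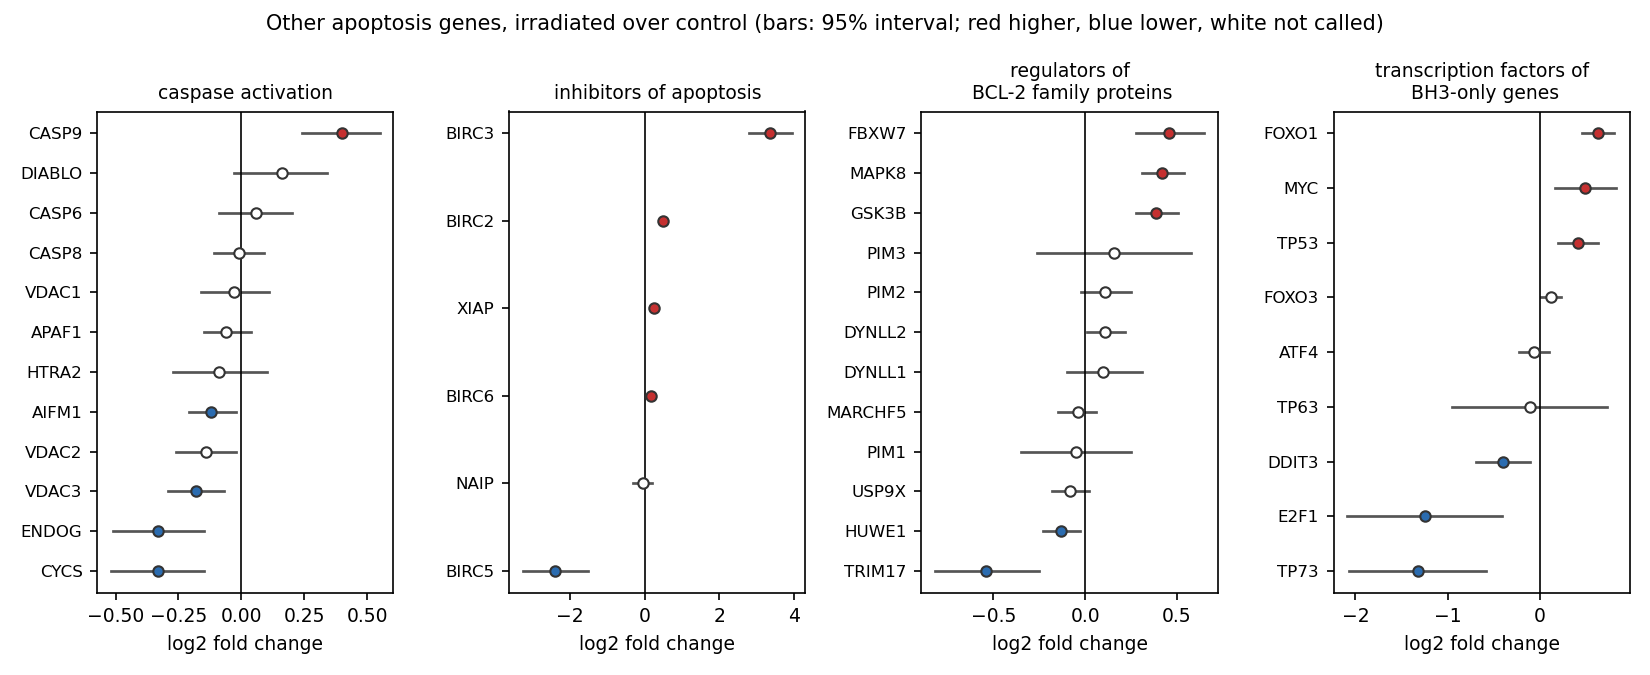
Log2 fold change of irradiated over control samples with its 95% interval (horizontal axis, with its own scale in each panel) for the 39 genes of 4 apoptosis lists, red where called higher, blue where called lower and white where not called. BIRC3 rose by 3.37 and BIRC5 fell by 2.40, and most caspase activation genes lay within 0.4 of 0.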

How the data were processed

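Bulk RNA-seq libraries of RPTEC/TERT1 cells (5 controls, 5 irradiated with 10 Gy, day 7) were used. The authors trimmed adapters, aligned reads to GRCh38 (hg38) with STAR and counted them per GENCODE gene, and deposited raw counts per gene and sample, with no normalisation. The annotation release is not given in the sources used here, and the labels and the study's methods name different library kits. The labels' cell line field runs on as a filled-in series, and the line was taken as RPTEC/TERT1 throughout. Of 61587 identifiers, 61415 matched a symbol, and 0 columns were left unused. Exon lengths, overlaps and sequence came from GENCODE 44 and its GRCh38 genome.

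The 19006 genes reaching a total of 200 counts were tested with edgeR 4.0.16 in R 4.3.3 (TMM, quasi-likelihood test, replicate number as a block, Benjamini-Hochberg adjustment, threshold 0.05), after the study's filter and model, which it ran in DESeq2. The test was checked on simulated data. DESeq2 1.42.0, limma 3.58.1 (voom), other scalings and filters, a fit without the block and leaving out each replicate number were alternatives. Intervals are 95% intervals from the fit. Samples of one replicate number deviated together from their group means (correlations of 0.22 to 0.51, all over 0.1), so the numbers, which the labels give, were taken to pair the samples. Samples of different numbers had correlations of -0.35 to 0.32 (median -0.13). The 0.22 of replicate 2 lay within that range, so the correlation alone does not establish its pairing. No replicates of a group agreed within sampling noise (chi-square of 8.5 to 213 per gene). Replicates 4 and 5 lay closest to each other in both groups. Their chi-square was 15.1 in controls (others 57.1 to 213) and 8.5 after irradiation (others 40.4 to 88.5). Each alternative left out 1 replicate number at most, so a fit without both was not tested, and the 5 pairs may not be equally independent. Nothing in the labels says that the samples were separate cultures, so p-values measure only the spread between these samples.

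The members and all lists were chosen with earlier results of these data known. Named genes were all members, all 13 other family genes, and the 4 called genes with the largest absolute log2 fold change of each pathway list. Some genes of these lists are not reported here.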

Additional observations from a re-analysis of the deposited data

Results flagged for a closer look

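Of 74 groups of 5 values examined for family and named pathway genes, 8 held a sample far from the other 4 (gap over range above Dixon's 95% critical value for 5 samples), and chance alone gives about 3.7. BCL2L2 was high in replicate 3 of both groups, at 42.0 CPM in the control (others 35.1 to 37.0) and at 42.9 CPM in the irradiated sample (others 37.5 to 38.9). BAK1 was also high in control replicate 3, at 42.4 CPM (others 28.6 to 31.2), the control with the highest CDKN1A at 208 CPM. MCL1 was low in control replicate 2, at 393 CPM (others 423 to 435), as was BNIP3L at 58.9 CPM (others 84.2 to 89.4). Irradiated replicate 2 was high for BMF, at 19.9 CPM (others 2.39 to 6.87), and low for GSK3B, at 103 CPM (others 117 to 122). VDAC3 was low in control replicate 1, at 75.1 CPM (others 87.3 to 91.1).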

How the results depend on the processing

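The members' calls stayed on their side of the threshold in 108 of 120 combinations of member and alternative, and 8 of the 10 members kept theirs throughout, with BAK1 and BCL2L11 as the exceptions. Log2 fold changes lay between 0.69 and 0.79 for BCL2L1, between -0.71 and -0.55 for BCL2, between -0.37 and -0.27 for MCL1, between 0.85 and 0.98 for BAX, between 1.35 and 1.78 for BBC3, between 0.50 and 0.72 for PMAIP1 and between 0.22 and 0.32 for BID. Members called higher numbered 5 or 6 and members called lower 2 or 3 in every setting, and 5 and 2 at an adjusted p under 0.01, a threshold added after the data had been seen. Without the replicate block 7006 genes were called in place of 8857, BAK1 was lost (adjusted p = 0.361) and no other member changed its call. Scaling by library size only shifted the median of all genes by -0.076 and lowered the share of called genes that rose from 51.4% to 38.0%, and no member changed direction. Dividing by exon bases shared with no other gene turned the order of MCL1 and BCL2L1 in controls. With 831 or more counts per member and sample, the spread between replicates set the precision.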
